A study of Mus musculus with 16 samples.

Results

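The genotype by dexamethasone interaction asks, gene by gene, whether loss of Foxo3 alters the response of a macrophage to a glucocorticoid. It is the response in knockout libraries minus the response in wild-type libraries, (knockout dexamethasone minus knockout vehicle) minus (wild-type dexamethasone minus wild-type vehicle). All 16 of the 16 libraries of the series entered it. They came from FVB/N mouse bone marrow-derived macrophages, cells of femur and tibia that mature in culture under the growth factor that L929 fibroblasts release. The groups were wild type with vehicle (DMSO), wild type with dexamethasone, FOXO3-/- with vehicle and FOXO3-/- with dexamethasone, with 4 libraries in each. Dexamethasone, a synthetic glucocorticoid, was given at 100 nM for 24 h. The sources used here give neither the age of the animals nor the part of Foxo3 that was removed, nor do they say whether libraries came from separate animals. P-values therefore reflect how far these libraries vary, and that variation may be technical.

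The glucocorticoid receptor is a transcription factor that sits in the cytoplasm with heat-shock chaperones until it binds hormone. In the nucleus it activates genes such as Fkbp5 and Tsc22d3 and represses many inflammatory genes of macrophages. FOXO3 is a forkhead transcription factor that the kinase AKT keeps out of the nucleus when growth factors are plentiful. Both factors share some targets, among them genes of stress defence, metabolism and survival.

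Levels are given as FPKM, a fragment count divided by exon length and library size, so that genes can be compared per length. A gene was tested where it reached 1 FPKM in at least 4 libraries, which 11654 did. For a gene of 2 kb, 1 FPKM stood for 32.9 to 39.7 reads. Macrophage markers summed to between 10071 and 16052 FPKM in every library. Cd3e, Trac, Ms4a1 and Flt3 of the T, B and dendritic cell lists stayed under 0.1 FPKM, but other members of the lists were present. T and NK cell markers summed to 3.58 to 17.5 FPKM, dendritic cell markers to 0.888 to 3.76 FPKM and neutrophil markers to 1.36 to 17.7 FPKM. Endothelial markers summed to 2.42 to 24.9 FPKM, and osteoblast markers, Col1a1 among them, to 54.2 to 695 FPKM. B cell markers summed to 18.8 to 96.3 FPKM, megakaryocyte and erythroid markers to 30.1 to 50.9 FPKM in wild-type and 64.8 to 117 FPKM in knockout vehicle libraries, and adipocyte markers to 90.9 to 512 FPKM. Stromal markers summed to 34.6 to 641 FPKM in wild-type and 3.23 to 454 FPKM in knockout vehicle libraries. Col1a1, a fibroblast collagen gene, stood at 127, 124, 6.77 and 174 FPKM in wild-type vehicle libraries 1 to 4 and at 356, 159, 286 and 19.1 FPKM in wild-type dexamethasone libraries 1 to 4. In knockout vehicle libraries 1 to 4 it stood at 4.76, 0.506, 0.395 and 95.8 FPKM, and in knockout dexamethasone libraries 1 to 4 at 1.18, 1.2, 14.95 and 25.5 FPKM. Wild-type vehicle library 3, wild-type dexamethasone library 4 and knockout vehicle library 4 thus lay apart from the rest of their groups. Results are given with all 16 libraries, with the other 13, or with both. Among those 13 every wild-type library is rich in stromal RNA and every knockout library is poor in it, so that genotype and stromal content cannot be told apart there. In a bulk library, fewer cells of a type and less RNA per cell cannot be told apart either.

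Foxo3 itself did not check the genotype labels, since a value over all exons can persist after a partial deletion. It read 23.8 ± 0.635 FPKM in knockout vehicle libraries (SD, n = 4) and 24.7 ± 1.72 FPKM in wild-type ones (two-sided exact permutation p = 0.371). Under dexamethasone the levels were 24.5 ± 1.44 and 23.2 ± 1.07 FPKM (exact permutation p = 0.171, the smallest that 70 splits allow being 0.0286). The direction of each interaction therefore depends on the labels being right.

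With all 16 libraries, 15 genes had an interaction with a limma adjusted p under 0.05, 0.129% of those tested. Of these, 7 had a higher (0.0601%) and 8 a lower (0.0686%) response in knockout. At an unadjusted p under 0.05 there were 1359. By the calls and sizes of the separate responses, the response was lost in knockout for 1 gene, weakened for 2, strengthened for 8, gained for 4, and of opposite sign for none. A lost response is one that passed in wild type only and is smaller in knockout, and a gained one passed in knockout only and is larger there. Weakened and strengthened responses passed in both genotypes with 1 sign. As shares of the genes tested these were 0.00858%, 0.0172%, 0.0686% and 0.0343%. All 15 passed, with the same sign, in the 13 libraries, and 14 of them kept their class. The 13 are part of the 16 that chose the genes, so this is not a second test. None of the 15 shifted by 1 or more on the log2 scale in any of the 3 libraries apart in Col1a1. The genes lay on 10 chromosomes, none of them on chromosome 10, which carries Foxo3. The 3 genes just outside the threshold were Slc38a2, Sdhaf4 and Tent5a, each at an adjusted p of 0.051 with a size of -0.54, 0.52 and 0.69, against 0.0433 for Igbp1 just inside it.

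**Figure D1:**
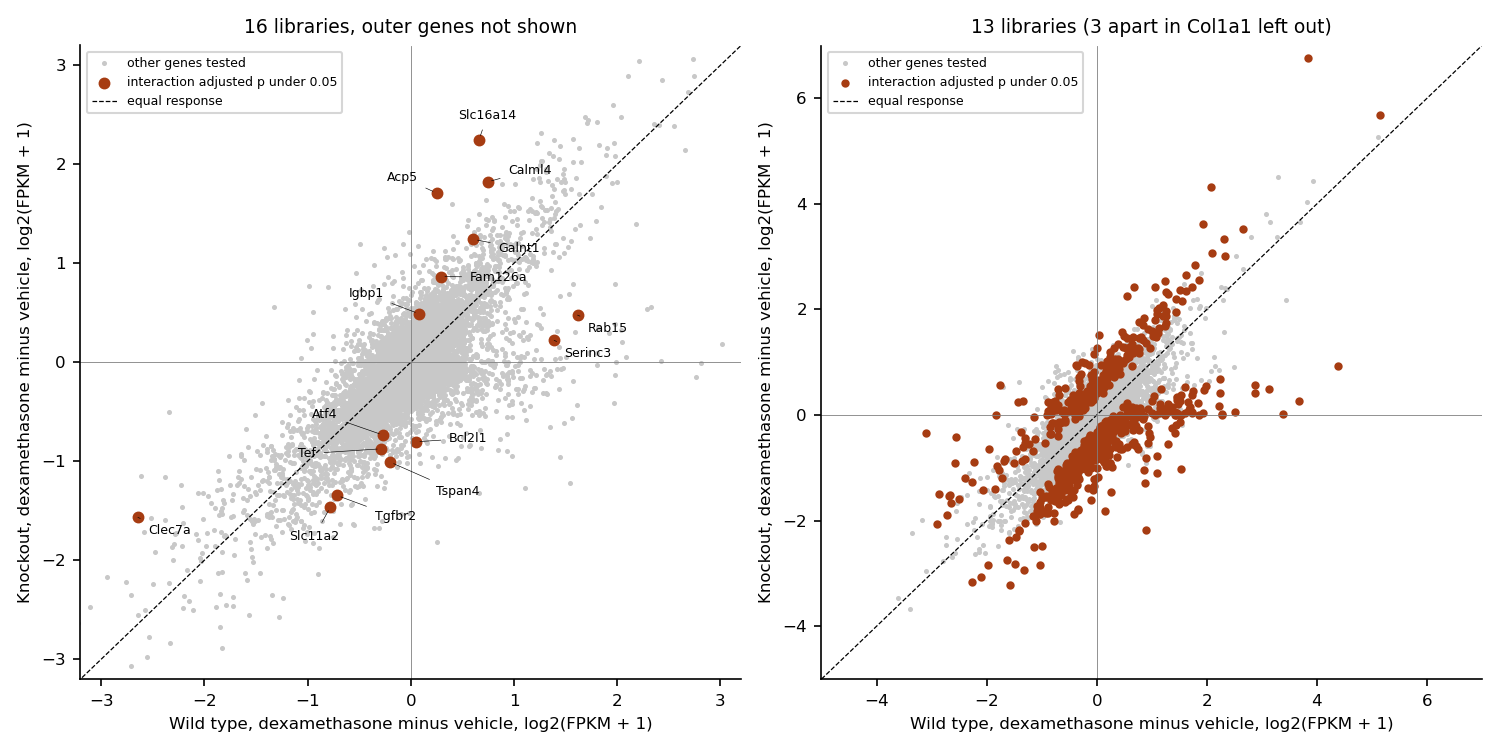
Each point is a gene, with its wild-type response on the horizontal axis and its knockout response on the vertical axis, both as dexamethasone minus vehicle on the log2(FPKM + 1) scale, for 16 libraries (left, outer genes not shown) and 13 libraries (right). The 15 called genes in the left panel lie away from the dashed line of equal response. The 8 with a negative interaction, Serinc3 and Rab15 among them, lie to its right. The right panel holds 725 called genes.

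The sequence just before the start of transcription is shown for 3 genes, Serinc3 and Fam126a because their calls held without any one library, and Rab15 because its promoters hold matches to the receptor's core motif. Each is 250 bases that end at the start of transcription, from RefSeq on GRCm38.p6, read 5′ to 3′ on the minus strand of the gene. Capitals mark the core AGAACA of the glucocorticoid response element.
Serinc3, chr2:163645144-163645393: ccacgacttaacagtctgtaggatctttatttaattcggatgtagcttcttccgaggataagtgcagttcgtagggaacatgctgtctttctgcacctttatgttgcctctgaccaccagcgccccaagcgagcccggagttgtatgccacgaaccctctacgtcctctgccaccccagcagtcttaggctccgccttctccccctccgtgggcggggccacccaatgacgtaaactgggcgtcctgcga
Fam126a, a start within the gene as annotated, chr5:24030313-24030562: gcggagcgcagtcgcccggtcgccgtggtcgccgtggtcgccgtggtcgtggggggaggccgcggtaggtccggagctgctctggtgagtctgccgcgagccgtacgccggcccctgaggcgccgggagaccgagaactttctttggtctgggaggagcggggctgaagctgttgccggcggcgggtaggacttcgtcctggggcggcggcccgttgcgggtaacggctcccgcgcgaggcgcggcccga
Rab15, an internal start, chr12:76813857-76814106: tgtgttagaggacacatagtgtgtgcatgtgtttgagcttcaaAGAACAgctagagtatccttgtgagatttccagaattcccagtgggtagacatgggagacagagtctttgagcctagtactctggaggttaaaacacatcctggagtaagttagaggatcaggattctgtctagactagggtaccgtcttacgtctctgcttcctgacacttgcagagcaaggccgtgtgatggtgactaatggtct
The windows searched ran from 250 bases before to 50 bases after each start, on both strands. RefSeq held 23 such windows for 13 of the 15 genes. The FOXO motif TGTTTAC and the full element, in which AGAACA is followed 3 bases on by TGTTCT, were in none of the 23. Over all genes tested they were in 2.55% and 0.00916% of 10922 windows. The core AGAACA, which lies within the full element, was in 3 of the 23, or 13.04%, against 12.3% over all genes tested. Rab15 held 2 of those windows and Tef the other.

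Dexamethasone raised Serinc3 in wild-type macrophages and barely moved it in knockout ones. Serinc3 (ENSMUSG00000017707) encodes a membrane protein of the serine incorporator family, known as a restriction factor for retroviruses. Its position in GRCm38 is chromosome 2, 163623272 to 163645131, minus strand. Wild-type vehicle libraries 1 to 4 read 212, 248.7, 226 and 266 FPKM, and wild-type dexamethasone libraries 611, 624, 544 and 728 FPKM. Knockout vehicle libraries read 127, 114, 122 and 117 FPKM, and knockout dexamethasone libraries 145, 135, 135 and 146 FPKM. No 2 of the 4 groups overlapped, and every wild-type library was above every knockout library. The mean rose 2.63-fold in wild type and stood 1.17-fold higher in knockout. On the log2(FPKM + 1) scale the responses were 1.39 and 0.22, and the interaction was -1.17 ± 0.123 (SE; limma adjusted p = 0.00157). The knockout response did not pass with 16 libraries (limma adjusted p = 0.0578) and did with 13 (limma adjusted p = 0.0473), where Serinc3 is classed as weakened. Leaving out any of the 16 libraries in turn kept the call.

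Rab15 and Clec7a responded in both genotypes, with a smaller response in knockout. Rab15, a small GTPase of endosome recycling, read 0.794, 0.784, 0.376 and 0.513 FPKM in wild-type vehicle libraries and 3.52, 4.41, 4.66 and 3.26 FPKM in wild-type dexamethasone libraries. In knockout it read 0.0755, 0.170, 0.0874 and 0.314 FPKM with vehicle and 0.421, 0.577, 0.728 and 0.742 FPKM with dexamethasone, so that treated knockout libraries only reached the range of untreated wild-type ones. The interaction was -1.14 ± 0.178 (SE; limma adjusted p = 0.0319). Since knockout levels lay under 1 FPKM, the pseudocount weighs on this gene, and with a pseudocount of 0.1 FPKM the value was -1.02 and no longer passed. With voom on the recovered reads it was -0.65, which did not pass either.

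Clec7a encodes Dectin-1, the receptor for fungal beta-glucan, and fell with dexamethasone. It read 23.0, 24.0, 30.9 and 30.7 FPKM in wild-type vehicle libraries and 2.81, 3.61, 3.40 and 4.15 FPKM in wild-type dexamethasone libraries. Knockout libraries read 20.7, 18.7, 20.3 and 14.9 FPKM with vehicle and 5.19, 5.12, 6.71 and 5.42 FPKM with dexamethasone. Knockout levels were below all wild-type levels with vehicle and above them with dexamethasone. The responses were -2.64 and -1.57, a difference of 1.08 ± 0.182 (SE; limma adjusted p = 0.0394).

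A rise was stronger in knockout for Fam126a, Galnt1, Slc16a14 and Calml4. Fam126a encodes hyccin, part of the complex that holds the lipid kinase PI4KA at the plasma membrane, and is located at 23915276 to 24030690 of chromosome 5, minus strand. Wild-type libraries read 5.08, 5.05, 5.30 and 4.96 FPKM with vehicle and 6.99, 6.35, 6.26 and 6.27 FPKM with dexamethasone. Knockout libraries read 4.68, 5.39, 4.92 and 4.88 FPKM with vehicle and 9.54, 10.1, 9.80 and 10.1 FPKM with dexamethasone. The vehicle groups overlapped, and the treated groups did not. The rise was 1.27-fold in wild type and 1.99-fold in knockout, and the interaction was 0.58 ± 0.0716 (SE; limma adjusted p = 0.00598), kept without any of the 16 libraries in turn.

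Galnt1, an enzyme that starts mucin-type O-glycosylation, had the same pattern. Its vehicle levels were 15.1 to 17.2 FPKM in wild type and 14.7 to 17.1 FPKM in knockout, and dexamethasone brought it to 22.7 to 26.8 FPKM and to 38.7 to 41.3 FPKM (interaction 0.63 ± 0.0952, SE; limma adjusted p = 0.0262). Slc16a14, of the monocarboxylate transporter family, rose from a level near the limit of detection. Wild-type libraries read 0.168, 0.0806, 0.311 and 0.145 FPKM with vehicle and 0.888, 0.672, 0.449 and 1.60 FPKM with dexamethasone, while knockout libraries went from 0.398, 0.0540, 0.189 and 0.201 FPKM to 4.75, 3.81, 4.402 and 6.205 FPKM. Its interaction was 1.59 ± 0.237 (SE; limma adjusted p = 0.0262), the largest of the 15 in size. It was 2.28 with a pseudocount of 0.1 FPKM and 2.42 with voom on the recovered reads, and passed with neither. Calml4, a calmodulin-like protein, went from 0.200 to 0.684 FPKM up to 0.941 to 1.77 FPKM in wild-type libraries and from 0.753 to 1.14 FPKM up to 4.87 to 6.99 FPKM in knockout. Its interaction was 1.08 ± 0.192 (SE; limma adjusted p = 0.0433), and it too did not pass with the smaller pseudocount.

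A fall was stronger in knockout for Tgfbr2, Atf4, Slc11a2 and Tef. Tgfbr2 is the type II receptor for TGF-beta, a cytokine that restrains macrophages. It read 70.3, 67.3, 64.7 and 67.4 FPKM in wild-type vehicle libraries, 46.0, 39.0, 43.8 and 34.9 FPKM in wild-type dexamethasone libraries, 76.9, 75.7, 76.8 and 84.0 FPKM in knockout vehicle libraries and 29.2, 29.2, 30.8 and 31.7 FPKM in knockout dexamethasone libraries. Knockout was above wild type with vehicle and below it with dexamethasone, with no overlap at either. Atf4, the transcription factor of the integrated stress response, went from 49.9 to 56.0 FPKM down to 40.3 to 45.9 FPKM in wild-type libraries and from 46.2 to 47.9 FPKM down to 26.5 to 29.2 FPKM in knockout. Slc11a2, the iron transporter DMT1, went from 21.7 to 26.1 FPKM down to 11.97 to 15.3 FPKM in wild-type libraries and from 27.4 to 34.3 FPKM down to 10.4 to 11.2 FPKM in knockout. Tef, a transcription factor of the output of the circadian clock, fell from 12.7 ± 0.861 to 10.3 ± 0.773 FPKM in wild-type libraries and from 11.7 ± 0.239 to 5.98 ± 0.712 FPKM in knockout (SD, n = 4). The knockout minus wild-type differences in response were -0.63 for Tgfbr2, -0.47 for Atf4, -0.68 for Slc11a2 and -0.59 for Tef, with limma adjusted p-values of 0.0394, 0.0394, 0.0431 and 0.0433.

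The wild-type response did not pass, and the knockout response did, for Acp5, Bcl2l1, Tspan4 and Igbp1. Acp5 encodes tartrate-resistant acid phosphatase, a marker of osteoclasts and of some tissue macrophages. It read 27.6, 24.1, 20.96 and 26.1 FPKM in wild-type vehicle libraries and 26.4, 24.4, 29.9 and 38.9 FPKM in wild-type dexamethasone libraries, which overlapped. Knockout vehicle libraries were far lower, at 6.23, 6.63, 5.53 and 3.29 FPKM, and knockout dexamethasone libraries read 20.6, 20.97, 18.4 and 18.2 FPKM. The rise in knockout was 3.60-fold and ended below all treated wild-type libraries, and the interaction was 1.46 ± 0.237 (SE; limma adjusted p = 0.0394). Among the 9 libraries with Col1a1 under 50 FPKM wild type has 1 library with each treatment. There the treated wild-type library read higher for Acp5 by 0.86, and the interaction was 0.67.

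Bcl2l1, which encodes the survival protein BCL-XL, read 36.4, 33.7, 40.1 and 32.9 FPKM in wild-type vehicle libraries and 39.2, 34.5, 40.4 and 34.1 FPKM in wild-type dexamethasone libraries. It fell in knockout from 41.8, 43.4, 34.6 and 31.5 FPKM to 19.7, 20.7, 23.7 and 20.3 FPKM, below every other library (interaction -0.85 ± 0.145, SE; limma adjusted p = 0.0394). Tspan4, a tetraspanin found on migrasomes, went from 56.2 to 78.3 FPKM to 55.0 to 62.2 FPKM in wild-type libraries and from 59.5 to 67.4 FPKM down to 26.1 to 35.4 FPKM in knockout (interaction -0.81, limma adjusted p = 0.0433). Of its exon length, 13.4% overlaps exons of Chid1, and without a stated strand setting the reads there cannot be assigned. Igbp1, a binding partner of the catalytic subunit of phosphatase 2A, held at 9.40 to 11.1 FPKM in treated wild-type libraries and reached 13.6 to 14.9 FPKM in treated knockout libraries, from 9.46 to 9.67 and 9.59 to 10.2 FPKM with vehicle. Its interaction of 0.41 was the smallest of the 15 in size (limma adjusted p = 0.0433).

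Over the 15 genes, knockout vehicle and knockout dexamethasone libraries did not overlap for 15, treated wild-type and treated knockout libraries for 15, wild-type vehicle and wild-type dexamethasone libraries for 11 and the vehicle groups for 9. Among all genes tested the shares without overlap were 40.5%, 26.4%, 27.3% and 10.6%. Since the genes were chosen on the interaction, these counts describe the choice.

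**Figure D2:**
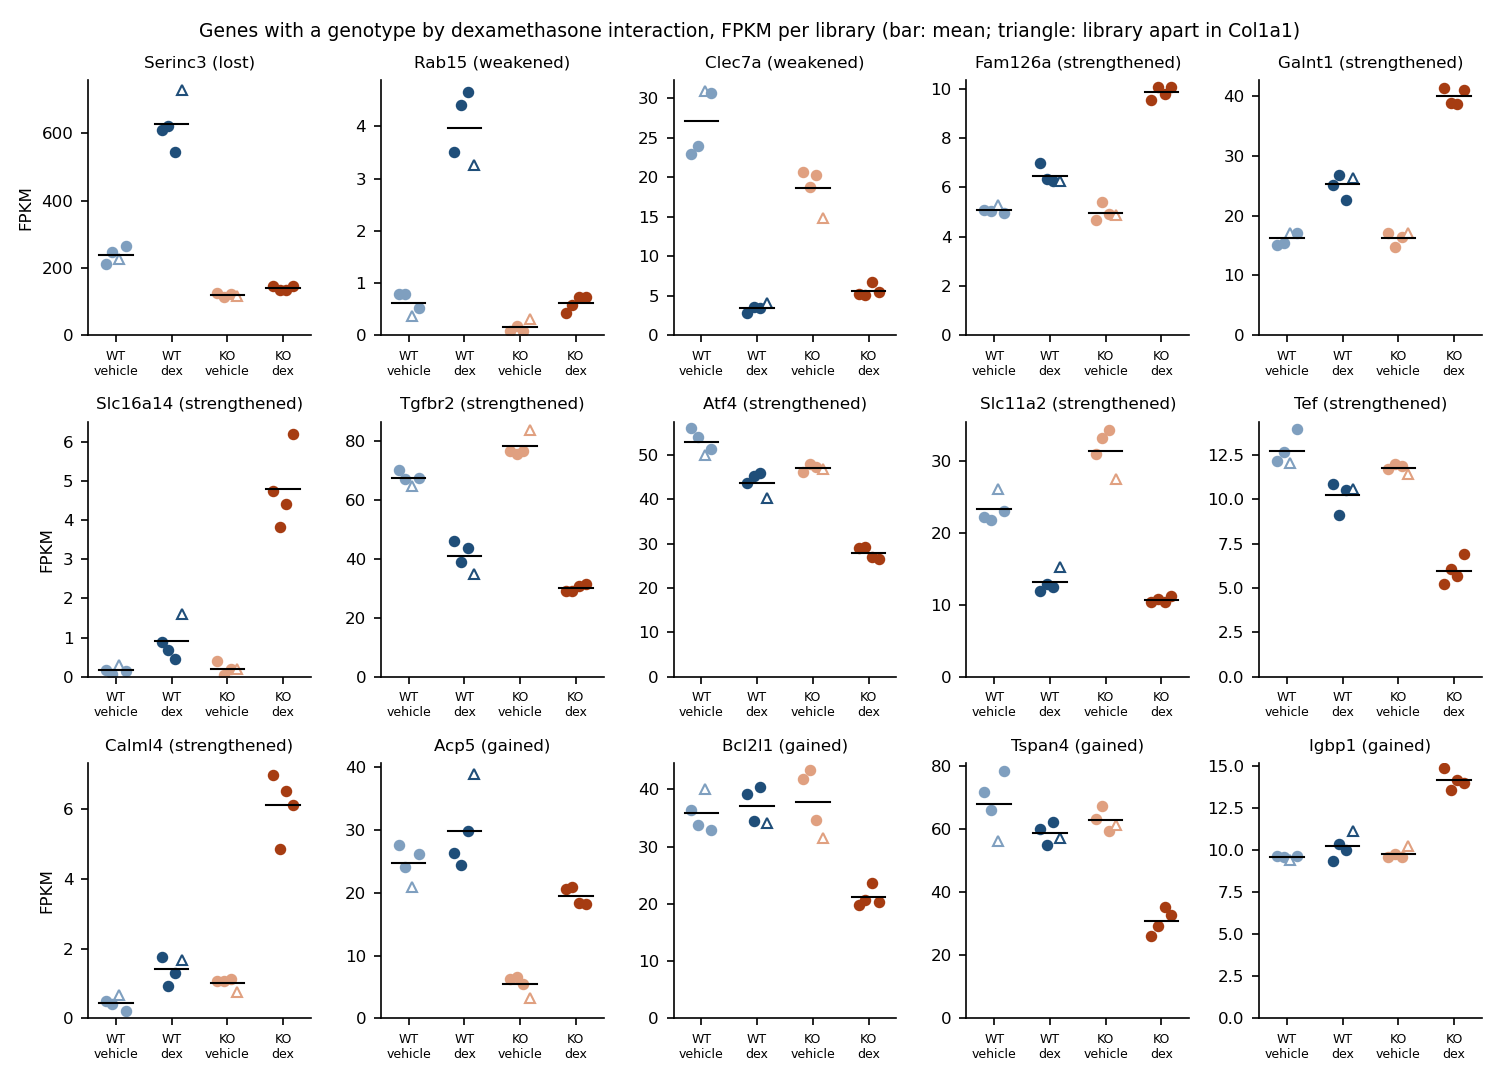
FPKM of the 15 called genes, 1 panel a gene, with a point for each library in the 4 groups, a bar for the group mean and triangles for the 3 libraries apart in Col1a1. For Serinc3 the 4 treated wild-type libraries sit between 544 and 728 FPKM and the treated knockout libraries between 135 and 146 FPKM.

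The 15 calls were not equally steady. Serinc3 and Fam126a passed without any library in turn, Galnt1 and Slc16a14 in 8 of the 16 such fits, Rab15 in 6, Bcl2l1 in 4 and the others in 1 to 3. All 240 values of the 15 genes kept their sign, and 81 kept the call. Leaving out wild-type dexamethasone library 4 raised the count of calls to 330 and leaving out knockout vehicle library 4 raised it to 32. Leaving out wild-type vehicle library 3 gave 11. Each of the other 13 libraries, left out alone, lowered it to between 2 and 7. The set was also compared in the 9 libraries with Col1a1 under 50 FPKM, where wild type has 1 library with each treatment and its variation is taken from the knockout groups. All 15 genes kept their sign there, with Serinc3 at -1.47. These 9 are part of the 16 that chose the genes, so the kept signs are not a second test.

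**Figure D3:**
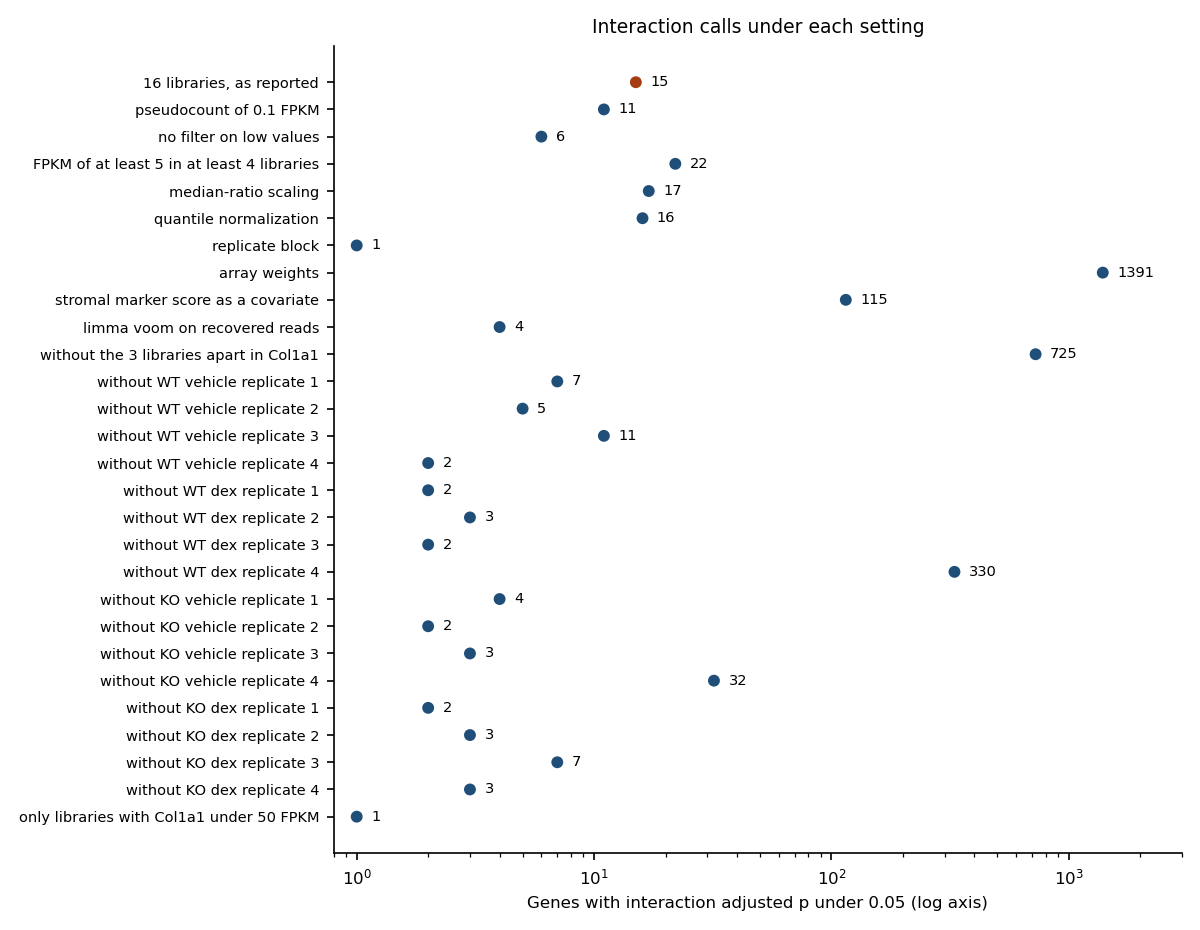
Number of genes with an interaction adjusted p under 0.05 (log axis) with all 16 libraries, in red, and under each other setting, in blue. The count of 15 becomes 330 without wild-type dexamethasone library 4, 725 without all 3 libraries apart in Col1a1 and 1391 with array weights.

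Without the 3 libraries, 725 genes had an interaction, 6.22% of those tested, of which 266 were higher (2.28%) and 459 lower (3.94%). With quantile normalization of those 13 libraries the split was 443 higher and 478 lower. The median standard error of the interaction was 0.136 over all genes tested, against 0.152 with 16 libraries. Of the 725 genes, 457 had an unadjusted p under 0.05 with 16 libraries and 1 had the other sign there. Their median size was 0.65 with 13 libraries and 0.50 with 16, and 153 had a size of at least 1. Among the 9 libraries with Col1a1 under 50 FPKM, 1 of the 725 passed. Leaving out wild-type dexamethasone library 4 alone shared 306 of its 330 calls with the 725, which is 92.7% of the former and 42.2% of the latter. Leaving out 1 more of the 13 libraries gave 429 to 1211 calls, with wild-type dexamethasone libraries 3 and 1 lowest at 429 and 451 and library 2 of that group highest at 1211.

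By class, the response was lost in 155 genes (1.33% of those tested), weakened in 42 (0.36%), strengthened in 251 (2.15%), gained in 229 (1.96%) and opposite in 47 (0.403%), with 1 called gene in none of these classes. A lost response was mostly a rise (103 genes up, 52 down), a weakened one mostly a fall (7 up, 35 down). Over all genes tested 13.1% rose and 20.4% fell in wild type with 13 libraries, a split that the lost class ran against. Strengthened and gained responses were more often falls, with 162 down and 89 up, and 156 down and 73 up. Over all genes tested 28.8% fell and 16.9% rose in knockout, a split near that of the strengthened and gained classes. The left-out libraries moved with some of these classes. In the 103 genes with a lost rise, wild-type dexamethasone library 4 lay at a median of -1.79 on the log2 scale below the rest of its group, and 71 of them were lower there by at least 1. Wild-type vehicle library 3 lay at a median of -0.76 and knockout vehicle library 4 at 0.65. The knockout mean was under 1 FPKM for 60 of these 103 genes, or 58.3%, against 9.61% of all genes tested. For the genes with a strengthened fall the medians were 0.31 in wild-type vehicle library 3 and -0.46 in knockout vehicle library 4. Over the 15 genes called with 16 libraries the medians were 0.08 in wild-type dexamethasone library 4, -0.03 in wild-type vehicle library 3 and -0.05 in knockout vehicle library 4. The part of stromal RNA in the classes was not tested.

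**Figure D4:**
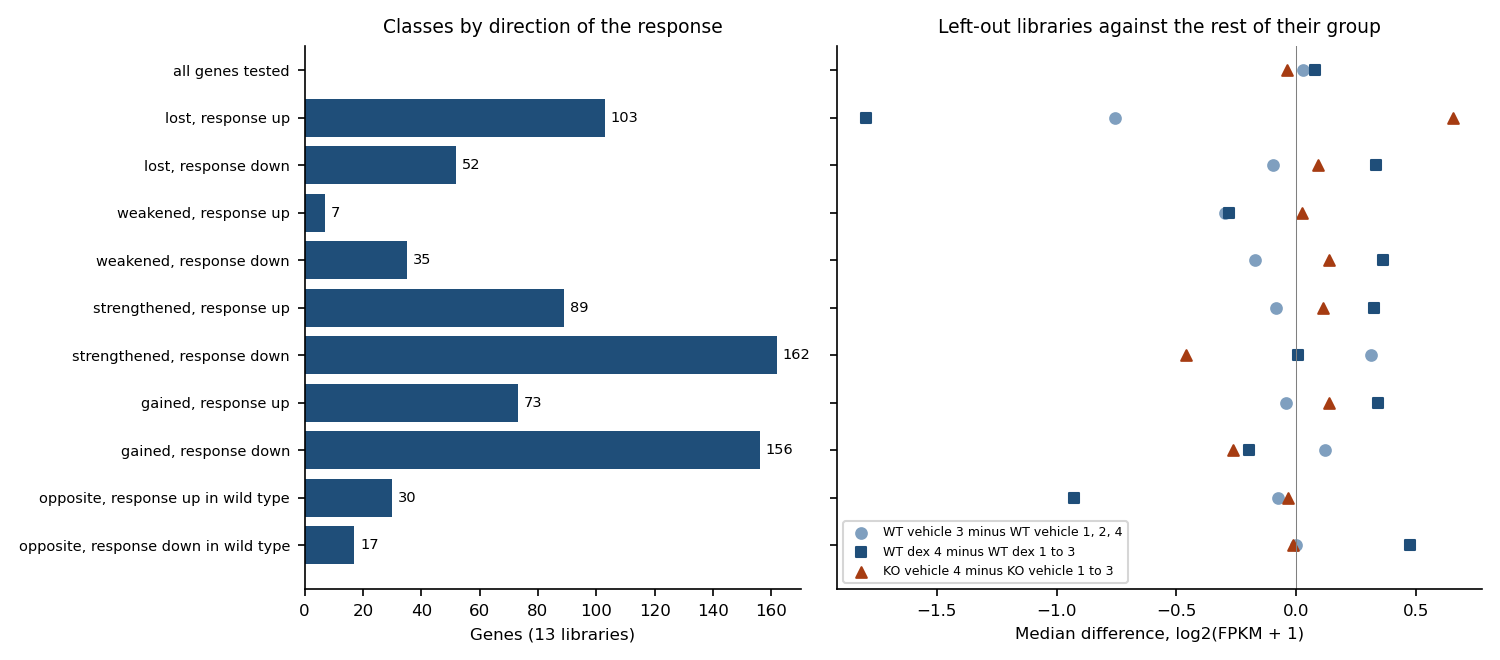
Left, the number of genes in each class with 13 libraries, split by the direction of the response. Right, for each class, the median difference in log2(FPKM + 1) between a left-out library and the rest of its own group, where genes with a lost rise stand at -1.79 in wild-type dexamethasone library 4 and at 0.65 in knockout vehicle library 4.

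The genes named by class in what follows have the smallest adjusted p of their class with 13 libraries, and were chosen after their values were seen. Of all genes named from here on, only those among the 15 had an interaction that passed with 16 libraries. Levels are means ± SD over 3 libraries in each group but treated knockout, which had 4. Among lost responses, Ctla2a went from 0.530 ± 0.200 to 18.4 ± 1.66 FPKM in wild-type libraries and from 0.0183 ± 0.0158 to 0.239 ± 0.190 FPKM in knockout. Ndrg2 went from 0.345 ± 0.173 to 14.6 ± 7.55 FPKM in wild type and read at most 0.119 FPKM in a knockout library. Wild-type dexamethasone library 4 read 1.203 FPKM for Ctla2a and 1.17 FPKM for Ndrg2. Their interactions were -3.40 and -3.36 with 13 libraries, -2.84 and -2.81 with 16, where neither passed (limma adjusted p = 0.166 and 0.155), and -0.79 and -1.04 among the 9 libraries with Col1a1 under 50 FPKM. The matrix protease Mmp3 fell from 23.1 ± 8.32 to 1.70 ± 0.388 FPKM in wild type. In the knockout libraries kept it also read lower with dexamethasone, at 0.346 ± 0.432 and 0.0358 ± 0.0434 FPKM. The pseudocount weighs on such low levels, and with voom on the recovered reads the interaction of Mmp3 changed sign. The Wnt-binding protein Sfrp4 fell from 3.78 ± 0.608 to 0.346 ± 0.149 FPKM in wild type and was listed at 0 in the knockout libraries kept. Rgcc, a regulator of the cell cycle and a receptor target, rose from 1.92 ± 0.734 to 15.6 ± 3.42 FPKM in wild type, but read 0.691 FPKM in wild-type dexamethasone library 4. Mmp3 read 1.41 FPKM in the left-out wild-type vehicle library 3, while the left-out knockout vehicle library 4 read 11.4 FPKM. H2-Q4, a class I histocompatibility gene, was at a high level in both genotypes. It fell from 51.1 ± 4.16 to 30.4 ± 2.26 FPKM in wild type and read 46.1 ± 2.35 and 49.6 ± 2.81 FPKM in knockout (interaction 0.83, limma adjusted p = 0.00111). It read 33.9 FPKM in the left-out wild-type vehicle library 3 and 64.4 FPKM in knockout vehicle library 4. With 16 libraries its interaction was 0.49 and did not pass, and among the 9 libraries with Col1a1 under 50 FPKM it was -0.08, with a wild-type response of 0.18.

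Weakened falls included receptors of myeloid cells. Clec12a, an inhibitory lectin receptor, fell from 46.0 ± 1.22 to 8.82 ± 0.739 FPKM in wild-type libraries and from 75.2 ± 7.37 to 30.6 ± 3.18 FPKM in knockout (interaction 0.99, limma adjusted p = 0.00128). Aif1, which encodes the actin-binding protein IBA1, fell from 42.9 ± 4.62 to 5.90 ± 1.06 FPKM and from 68.3 ± 7.61 to 22.8 ± 1.52 FPKM (interaction 1.14, limma adjusted p = 0.00236). Pilra, an inhibitory receptor, fell from 2.92 ± 0.315 to 0.147 ± 0.0157 FPKM and from 1.68 ± 0.222 to 0.307 ± 0.0494 FPKM. A rise was weakened for Cdo1, cysteine dioxygenase, at 1.75 ± 0.446 to 9.83 ± 1.495 FPKM in wild type and 0.693 ± 0.444 to 1.44 ± 0.221 FPKM in knockout. In the 9 libraries with Col1a1 under 50 FPKM the interactions were 0.84, 0.50, 0.23 and -1.65, without passing. Among all 8 leading weakened genes, 7 kept their sign there, and Arl4c went from 0.62 to -0.23.

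Ddit4, an inhibitor of mTORC1 and a receptor target, led the strengthened responses with 13 libraries. It rose from 13.2 ± 3.76 to 197.7 ± 14.98 FPKM in wild-type libraries and from 2.205 ± 0.765 to 339.9 ± 28.0 FPKM in knockout (interaction 2.92, limma adjusted p = 0.000215). The left-out libraries reversed its vehicle levels, with 1.81 FPKM in wild-type vehicle library 3 and 9.53 FPKM in knockout vehicle library 4, and among the 9 libraries with Col1a1 under 50 FPKM its interaction was 0.22. Gdap2 rose from 4.12 ± 0.167 to 20.9 ± 0.863 FPKM in wild-type libraries and from 5.13 ± 0.242 to 50.3 ± 3.65 FPKM in knockout, and its interaction was 0.97 with 13 libraries, 0.84 with 16 (limma adjusted p = 0.0648) and 0.52 among the 9. The chemokine gene Ccl3 fell from 48.4 ± 3.60 to 36.4 ± 5.54 FPKM in wild-type libraries and from 60.3 ± 3.98 to 15.9 ± 1.71 FPKM in knockout (interaction -1.45).

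Gained falls included Mat2a, which makes S-adenosylmethionine, at 23.9 ± 0.491 and 25.1 ± 1.03 FPKM in wild type and 27.2 ± 0.803 and 16.8 ± 0.968 FPKM in knockout. Its interaction was -0.73 with 13 libraries and -0.59 with 16, where the limma adjusted p was 0.0555. Monoamine oxidase A (Maoa) read 17.0 ± 1.85 and 15.8 ± 3.15 FPKM in wild type and fell from 28.9 ± 2.05 to 8.77 ± 0.531 FPKM in knockout. Alox5, the first enzyme of leukotriene synthesis, read 1.41 ± 0.114 and 1.34 ± 0.255 FPKM in wild type and fell from 5.56 ± 0.890 to 1.59 ± 0.197 FPKM in knockout. Neither Maoa nor Alox5 passed with 16 libraries (limma adjusted p = 0.29 and 0.228). Among the 9 libraries with Col1a1 under 50 FPKM wild type has 1 library with each treatment. The treated one read lower there, by 1.43 for Maoa and by 1.02 for Alox5. The interactions of Maoa and Alox5 went from -1.50 and -1.29 to -0.19 and -0.31. Responses of opposite sign were led by Adamts1, a secreted protease, which went from 14.95 ± 1.01 to 29.2 ± 6.13 FPKM in wild-type libraries and from 30.2 ± 5.00 to 6.01 ± 1.88 FPKM in knockout. Adamts1 read 22.5 FPKM in wild-type vehicle library 3 and 6.31 FPKM in wild-type dexamethasone library 4. With 16 libraries its interaction did not pass (limma adjusted p = 0.228). Among the 9 its wild-type response, 1 library against 1, was -1.69 and its interaction was -0.50. Gsn (gelsolin), Plpp3, Il1rn and Angpt2 followed, all up in wild type and down in knockout. In the 30 genes with that pattern the median of wild-type dexamethasone library 4 was -0.93 against the rest of its group. Over the 40 leading genes of the 5 classes, 36 kept their sign among the 9 libraries, and the median size of the interaction was 0.48 there against 1.34 with 13 libraries. The knockout libraries are the same in both fits, so the kept signs are not a second test.

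The counts for pathway lists are members past the threshold of all genes tested, read against 2.28% higher and 3.94% lower over all genes with 13 libraries. Targets of the glucocorticoid receptor were largely induced in both genotypes. Of 29 measured, 20 rose and 2 fell in wild type with 13 libraries, where 13.1% and 20.4% of all genes did, and 17 rose and 4 fell in knockout, where 16.9% and 28.8% did. None of the 29 had an interaction with 16 libraries. With 13, 5 were higher and 4 lower, and the median interaction was 0.07 against -0.02 over all genes. Among the 9 libraries with Col1a1 under 50 FPKM the median was -0.19, against -0.05 over all genes, and 21 of the 29 values were below 0. Fkbp5, a chaperone of the receptor that limits its activity, rose from 1.25 ± 0.167 to 78.6 ± 5.32 FPKM in wild-type libraries and from 1.05 ± 0.0991 to 104.5 ± 7.46 FPKM in knockout. Its interaction was 0.54 with 13 libraries (limma adjusted p = 0.0117), 0.46 with 16 (limma adjusted p = 0.132) and 0.18 among the 9. Tsc22d3, which encodes the anti-inflammatory protein GILZ, rose by 3.30 and 3.58 on the log2 scale with 16 libraries, and its interaction of 0.28 ± 0.271 (SE) did not pass (limma adjusted p = 0.723). Mertk, a receptor for apoptotic cells, and the haemoglobin scavenger receptor Cd163 had stronger rises with 13 libraries, at 0.50 and 0.69. Cebpd rose from 13.01 ± 1.499 to 21.3 ± 1.22 FPKM in wild type alone, with 11.9 ± 2.07 and 10.6 ± 1.46 FPKM in knockout (interaction -0.83, limma adjusted p = 0.016).

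The receptor and its partners gave no interaction. Nr3c1, the receptor gene, read 11.1 ± 1.61 and 8.84 ± 1.68 FPKM in wild type without and with dexamethasone and 12.998 ± 1.84 and 10.3 ± 0.618 FPKM in knockout (SD, n = 4). Its interaction was 0.00245 ± 0.175 (SE; limma adjusted p = 0.997). None of the 17 measured genes of the list of the receptor, chaperones and coregulators passed with 16 or 13 libraries.

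Of 37 measured FOXO targets, none passed with 16 libraries, and 2 were higher and 4 lower with 13, with a median of -0.06. Leaving out 1 more library gave 3 to 6 calls, the lowest without wild-type vehicle library 2. Irs2, an adaptor of the insulin receptor that both factors are known to induce, read 5.03 ± 0.382 and 6.10 ± 0.346 FPKM in wild type and 2.41 ± 0.285 and 1.19 ± 0.237 FPKM in knockout. Its interaction was -0.88 with 13 libraries (limma adjusted p = 0.00377), -0.84 with 16 (limma adjusted p = 0.0853) and -1.19 among the 9 with Col1a1 under 50 FPKM, the last without passing. The transcription factor Klf4 was higher at 1.06 and the sphingosine phosphate receptor S1pr1 lower at -1.06. Gabarapl1, an autophagy gene, went from 80.9 ± 8.93 to 101.0 ± 9.20 FPKM in wild-type libraries and from 64.0 ± 8.47 to 51.7 ± 2.22 FPKM in knockout.

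Cholesterol and fatty acid synthesis held the most calls of the lists with 13 libraries, 16 of 27, all lower in knockout, against 3.94% of all genes. Of these 11 were strengthened falls and 5 gained falls, classes that together hold 2.73% of all genes. None of the 27 passed with 16 libraries, where the median interaction was -0.42 against -0.02 over all genes and 26 of the 27 values were below 0. The median was -0.82 with 13 libraries and -0.40 among the 9 with Col1a1 under 50 FPKM, where 25 were below 0 and none passed. With 13 libraries 14 to 21 members passed when 1 more library was left out, the lowest without wild-type vehicle library 2. The median stayed below 0 with median-ratio and with quantile scaling.

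The members named cover regulators and enzymes of the pathway. Srebf2, its main transcription factor, fell from 27.0 ± 0.948 to 13.8 ± 1.34 FPKM in wild-type libraries and from 44.9 ± 4.86 to 11.7 ± 0.565 FPKM in knockout (interaction -0.92 with 13 libraries, limma adjusted p = 0.00107). Insig1, the sterol sensor that retains that factor, had an interaction of -1.12. Squalene epoxidase (Sqle) was lower at -1.24 and lanosterol demethylase (Cyp51) at -1.45. Hmgcs1, an early enzyme, had an interaction of -0.58 that did not pass (limma adjusted p = 0.14). Srebf1, which drives fatty acid synthesis, had an interaction of -0.31 that did not pass (limma adjusted p = 0.0665).

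The genotypes differed more with vehicle than with dexamethasone for 23 of the 27 genes with 13 libraries and for 23 with 16, against 43.8% and 35.0% of all genes tested. Cyp51 read 4.09, 5.30, 12.5 and 5.70 FPKM in wild-type vehicle libraries 1 to 4 and 16.7, 17.8, 19.5 and 6.27 FPKM in knockout vehicle libraries 1 to 4. With dexamethasone it read 3.73, 3.57, 3.97 and 4.39 FPKM in wild type and 4.18, 4.62, 4.28 and 4.97 FPKM in knockout. Insig1 read 13.2, 12.9, 19.8 and 16.8 FPKM in wild-type vehicle libraries and 26.7, 26.5, 26.4 and 11.3 FPKM in knockout vehicle libraries. Its treated libraries lay close together, at 10.1 to 10.9 FPKM in wild type and 8.06 to 8.73 FPKM in knockout. Wild-type vehicle library 3, poor in Col1a1, was the highest of its group for 19 of the 27 genes, against 41.6% of all genes tested, and knockout vehicle library 4, rich in Col1a1, was the lowest of its group for 25, against 36.0%. The part of stromal RNA in these vehicle levels was not tested.

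**Figure D5:**
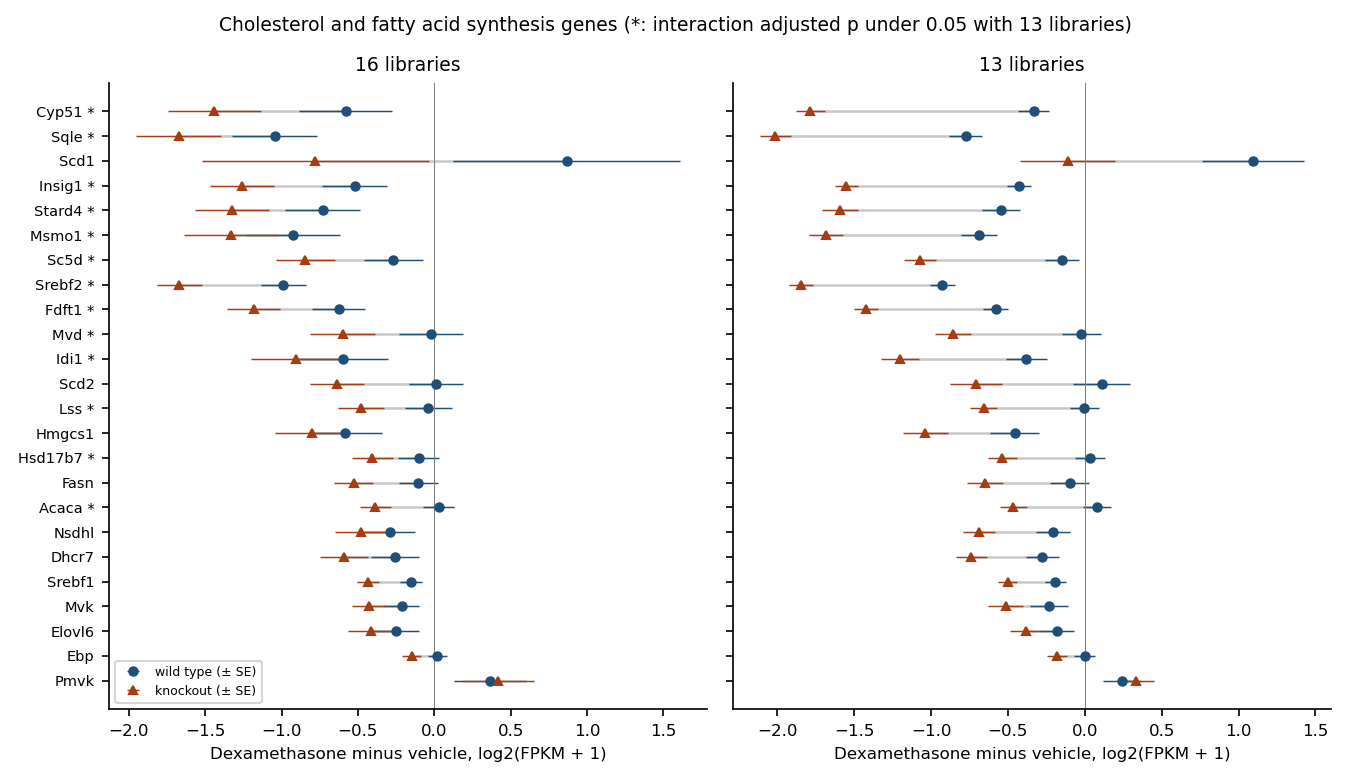
Responses to dexamethasone of 24 of the 27 measured cholesterol and fatty acid synthesis genes (log2(FPKM + 1), ± SE) in wild type, blue circles, and knockout, red triangles, with 16 libraries (left) and 13 (right). Knockout values lie to the left of wild-type values for 23 of the 24 genes in each panel, and the gap is wider with 13 libraries, with Cyp51 at -0.33 and -1.78.

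Of 13 LXR targets and cholesterol efflux genes, 5 were higher in knockout with 13 libraries and none lower, while 6 values were below 0 and the median was 0.05. With the stromal marker score as a covariate in the 13 libraries 5 were higher and 2 lower. Over all 11654 genes tested 347 were higher and 662 lower in that fit. With the covariate in all 16 libraries none of the 13 genes passed. Among the 9 libraries with Col1a1 under 50 FPKM 10 values were below 0. Leaving out 1 more of the 13 libraries gave 2 to 5 calls, the lowest without wild-type dexamethasone library 3. The exporter Abca1 read 84.4 ± 1.48 and 79.5 ± 6.81 FPKM in wild type and rose from 66.5 ± 7.29 to 100.5 ± 11.0 FPKM in knockout (interaction 0.68, limma adjusted p = 0.0116). Apoe, the lipid carrier, rose from 7572 ± 484 to 10620 ± 1200 FPKM in wild-type libraries and from 3468 ± 517 to 8444 ± 681 FPKM in knockout (interaction 0.81). Abcg1, Mylip and Apoc1 were the others. None passed with 16 libraries, and among the 9 with Col1a1 under 50 FPKM the interaction of the list had a median of -0.15, with Apoe at -0.36.

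Calls on metabolic and stress lists were lower in knockout. Of 24 glycolysis and hypoxia genes, 6 were lower and none higher with 13 libraries, and 22 of the 24 values were below 0 with 16 libraries, where none passed. The glucose transporter Slc2a1 read 15.8 ± 1.78 and 16.8 ± 1.60 FPKM in wild type and fell from 12.9 ± 0.750 to 7.30 ± 0.684 FPKM in knockout (interaction -0.83, limma adjusted p = 0.00392). Leaving out 1 more library gave 3 to 9 calls on this list, the lowest without wild-type vehicle library 2. Wild-type dexamethasone library 4 was the lowest of its group for 16 of these 24 genes and for 12 of the 22 ATF4 genes, against 24.2% of all genes tested. Knockout vehicle library 4 was the lowest of its group for 19 of the 21 NRF2 genes, against 36.0%. The part of these libraries in the results was not tested. Atf4 was the only member of 22 ATF4 and amino acid stress genes to pass with 16 libraries. Its targets Asns, asparagine synthetase, at -0.55 and Atf3 at -0.79 joined it with 13. Of 21 genes of NRF2, glutathione and thioredoxin, 4 were lower with 13 libraries, among them Gclc, the rate-limiting enzyme of glutathione synthesis. Gclc rose from 10.9 ± 1.16 to 17.9 ± 2.18 FPKM in wild type and fell from 11.7 ± 0.881 to 9.39 ± 0.405 FPKM in knockout (interaction -0.95, limma adjusted p = 0.00131). Of 20 chaperones of the endoplasmic reticulum, 3 were lower, Calr, Canx and Sel1l, and leaving out 1 more library gave 1 to 8 calls, the lowest without wild-type dexamethasone library 1. In contrast, none of 25 genes of the respiratory chain and none of 24 ribosomal protein genes passed with 16 or 13 libraries.

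Clock genes were called in 6 of 16 cases with 13 libraries, 5 lower and 1 higher. Bhlhe40, a clock repressor, fell from 11.1 ± 1.14 to 3.06 ± 0.271 FPKM in wild-type libraries and from 20.7 ± 3.499 to 1.36 ± 0.569 FPKM in knockout (interaction -1.65). Dbp, of the same family as Tef, fell from 14.96 ± 0.317 to 6.57 ± 0.583 FPKM and from 14.5 ± 1.85 to 3.42 ± 0.649 FPKM, with an interaction of -0.73 with 13 libraries, -0.88 with 16 (limma adjusted p = 0.0657) and -1.28 among the 9. Cry1 was lower at -0.70, and Bhlhe41 at -0.83. Arntl, the activator BMAL1, was higher at 0.53 and passed with 13 libraries but not after quantile normalization, which left 5 lower calls and none higher.

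Calls with 13 libraries were higher on the lists of lectins and inhibitory receptors and of Fc receptors and complement. Class II presentation held 1 call, also higher. Of 21 lectins, Siglecs and inhibitory receptors, 6 were higher and none lower with 13 libraries, and Clec7a alone passed with 16. Clec7a, Clec12a and Pilra had weaker falls, where 0.747% of all genes had a lost or weakened fall, and the inhibitory receptor Pirb a stronger rise, from 55.0 ± 4.29 to 66.0 ± 2.36 FPKM in wild-type libraries and from 64.2 ± 4.02 to 114.5 ± 6.37 FPKM in knockout (interaction 0.56, limma adjusted p = 0.00634). Pirb has near copies, among them Pira2 (1868 identical bases of 1928 aligned, in a transcript of 3824), and its reads can be shared with them. Clec10a and Mgl2 were the other 2. The high-affinity Fc receptor gene Fcgr1 fell from 57.2 ± 5.65 to 6.80 ± 1.25 FPKM in wild-type libraries and from 54.9 ± 4.94 to 12.5 ± 2.12 FPKM in knockout (interaction 0.85). It and Fcgrt were the calls among 20 Fc receptor and complement genes. Leaving out 1 more library gave 1 to 3 calls, and quantile normalization of the 13 gave 6 higher. The median interaction of these 20 was 0.29 with 13 libraries, with 0 values below 0. Among the 9 with Col1a1 under 50 FPKM it was -0.08, with 12 below 0. Among 12 class II presentation genes, 9 fell in wild type and 8 in knockout with 16 libraries (18.2% and 24.1% of all genes), and the median interaction was 0.54, with 11 of 12 values above 0. Ctss, cathepsin S, was the only call with 13 libraries, and none passed with 16. After quantile normalization of the 13 none passed, and leaving out 1 more library gave 0 to 2 calls. In the 9 libraries with Col1a1 under 50 FPKM the list's median was 0.13.

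Interferon-stimulated genes fell in both genotypes. Of 32 interferon-stimulated genes 30 fell in wild type and 29 in knockout with 16 libraries, against 18.2% and 24.1% of all genes tested. None of the 32 had an interaction with 16 libraries. With 13, Zbp1 was higher at 0.65, and Ifit1 and Ifi44 were lower at -0.85 and -0.63. Quantile normalization of the 13 gave 4 higher and 1 lower, and leaving out 1 more library gave 0 to 3 calls, the lowest without wild-type vehicle library 4. Of 19 NF-kB inflammatory genes, 9 fell and 3 rose in wild type and 8 fell and 3 rose in knockout with 16 libraries, and none had an interaction. With 13, Nfkbia, the inhibitor of NF-kB, was higher at 0.35 just inside the threshold, and Ccl3 and Nfkbiz were lower. Leaving out 1 more library gave 2 to 6 calls, the lowest without wild-type vehicle library 1. Of 17 iron genes, Slc11a2 and the ferritin heavy chain Fth1 were lower and Cd163 higher. Of the other lists, apoptotic cell clearance had 3 higher and 2 lower of 23, chemokines and their receptors 1 and 1 of 19, toll-like receptors 1 and 2 of 21, osteoclast genes 1 and 1 of 14, autophagy 0 and 2 of 23, lysosome 0 and 1 of 27, cell cycle 0 and 1 of 28, matrix proteases 0 and 1 of 18 and metallothioneins and zinc transporters 0 and 0 of 8.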

How the data were processed

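RNA-seq was made from 16 libraries, 4 in each of 4 groups, and the labels gave every group. The authors deposited FPKM per gene and library. The submitters' processing notes name TopHat2 2.0.12, Bowtie2 2.2.3, HTSeq 0.6.1, DESeq2 and GRCm38; no source used here gives the strand setting. Positions and exon overlaps came from the GENCODE annotation of GRCm38. Of 54532 gene IDs 54495 had a name. Whole reads recovered from the FPKM steps (97.05% to 97.43% of the lower positive values within 0.05 of a whole read) gave 16886746 to 20584578 reads on genes per library. Size factors, taken from the FPKM values, were 0.954 to 1.06.

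Values were set to log2(FPKM + 1), so that fold changes of low genes are understated. Genes that reached 1 FPKM in 4 or more libraries were fitted with limma 3.58.1 in R 4.3.3 (4 group means, intensity trend, all groups sharing the spread). P-values were adjusted by Benjamini-Hochberg over 11654 genes, with a threshold of 0.05. The script was tested on simulated data. Near copies of named genes were sought with BLAST 2.17.0 (at least 95% identity over at least 50% of the length), and promoters came from RefSeq on GRCm38.p6.

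The rule for named genes took Foxo3, Nr3c1, Fkbp5 and Tsc22d3, for each class up to 8 genes with the smallest adjusted p with 16 libraries that kept the class with 13 and the 4 of largest size, and per list up to 4 members past the threshold and its first 2. Genes named beyond this, the class leaders of the 13 libraries among them, were chosen after their values were seen. The members and the 29 lists were chosen with earlier results of these data known. Alternatives changed the pseudocount, filter, scaling, covariates, weights, test and libraries. Results for some genes are not reported here.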

Additional observations from a re-analysis of the deposited data

Results flagged for a closer look

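The 15 interactions tested between the genotypes, as knockout minus wild-type response in log2(FPKM + 1) units by limma, were -1.17 for Serinc3, -1.14 for Rab15, 1.08 for Clec7a, 0.58 for Fam126a and 0.63 for Galnt1. They were 1.59 for Slc16a14, 1.08 for Calml4, -0.63 for Tgfbr2, -0.47 for Atf4 and -0.68 for Slc11a2. They were -0.59 for Tef, 1.46 for Acp5, -0.85 for Bcl2l1, -0.81 for Tspan4 and 0.41 for Igbp1.

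In 6 of 80 groups of 4 libraries 1 library stood apart by Dixon's criterion, which chance meets in about 1 in 20. Fam126a stood highest in wild-type dexamethasone library 1 at 6.99 FPKM, and Tgfbr2 in knockout vehicle library 4 at 84.0 FPKM. Fkbp5 stood highest in knockout vehicle library 2 at 1.16 FPKM. Tsc22d3 stood apart in wild-type dexamethasone library 4 at 308.4 FPKM and in knockout vehicle library 4 at 16.3 FPKM. Col1a1 stood apart in knockout vehicle library 4 at 95.8 FPKM.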

How the results depend on the processing

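None of the 15 interactions changed sign under any alternative run. Of other named genes, none called with 16 libraries, Nr3c1 (0.00245) went to -0.0375 with the covariate, -0.0516 without the 3 libraries and -0.0846 to 0.0943 without 1 library. Mmp3 went to -0.33 with voom. With Col1a1 under 50 FPKM H2-Q4 went to -0.0814, Arl4c to -0.23, Fam241a to 0.0759 and Sept11 to 0.0939. The calls kept were 15 of 15 with array weights, with the stromal marker score as a covariate and without the 3 libraries apart in Col1a1, 14 with median-ratio scaling, 10 with a pseudocount of 0.1 FPKM and 10 with quantile normalization. Fewer were kept with voom on recovered reads (4), no filter (4), the replicate block (1) and Col1a1 under 50 FPKM (1, fewer libraries). The 15 calls became 6 with no filter, 1391 with array weights, 115 with the covariate, 4 with voom, 725 without the 3 libraries and 1 with Col1a1 under 50 FPKM. Leaving out 1 library gave 2 to 330 calls.

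By class, in the order lost, weakened, strengthened, gained and opposite, array weights gave 271, 82, 383, 547 and 98 genes, the covariate 20, 7, 44, 35 and 9, and the 13 libraries 155, 42, 251, 229 and 47. Voom gave 1, 0, 2, 1 and 0, no filter 1, 0, 3, 2 and 0, a minimum of 5 FPKM 3, 1, 10, 6 and 2, and a pseudocount of 0.1 FPKM 2, 1, 6, 2 and 0. Median-ratio scaling gave 0, 3, 8, 5 and 1, quantile normalization 2, 4, 6, 3 and 1, and Col1a1 under 50 FPKM 0, 1, 0, 0 and 0. Leaving out 1 library gave 0 to 82 lost, 0 to 15 weakened, 1 to 74 strengthened, 0 to 117 gained and 0 to 42 opposite. From the 13 libraries, 725 calls became 429 to 1211. The cause of these moves was not tested. Col1a1 under 50 FPKM and the alternatives within the 13 libraries were chosen after seeing the data.

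Same-numbered libraries had correlations of deviations between -0.763 and 0.732, 8 of 24 over 0.1, and 5 of 16 libraries correlated best with their own number. The deviations include those of the libraries apart in Col1a1. They cannot decide whether same-numbered libraries share an animal or a culture. With the number as a replicate block 1 gene passed, with 1 lost, 0 weakened, 0 strengthened, 0 gained and 0 opposite. At 32.9 to 39.7 reads per FPKM for a 2 kb gene, Rab15, Slc16a14 and Calml4 rest on few reads with vehicle.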
